A study of Mus musculus with 4 samples.

Results

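Intestinal stem cell markers were read on arrays of colonic epithelium from mice with loss of the Polycomb genes Bmi1 and Mel18. The set holds 10 genes, Lgr5, Smoc2, Ascl2, Olfm4, Prom1, Msi1, Hopx, Lrig1, Sox9 and Tnfrsf19, of 18193 genes with a probe set of 1 gene symbol. Every probe set that the platform annotation assigns to 1 of these symbols was taken, which gave 23 of 45037. The series has 4 arrays, 1 for each genotype: DKO, which carries both Bmi1ΔIEC and Mel18ΔIEC, then Bmi1ΔIEC alone, Mel18ΔIEC alone, and WT. Mel18 is the protein of the gene Pcgf2, and ΔIEC is read as loss in intestinal epithelial cells, the labelled cell type. All mice were C57BL/6, 6 to 8 weeks old and sex-matched. All, WT included, were injected with the carcinogen azoxymethane (10 mg/kg) and then, after 5 days, drank 3.5% dextran sulfate sodium for 5 days, which damages the colonic lining. Epithelial cells were shaken off the colon with EDTA on day 12, without a sort. The sources used here do not say which promoter drives the deletion. The series design sets 1 beside DKO, 3 beside Bmi1ΔIEC, 2 beside Mel18ΔIEC and 4 beside WT without saying whether these numbers count mice or name arrays.

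The colonic crypt is renewed by stem cells at its base. Lgr5 marks these cells and is a receptor for R-spondins, which amplify Wnt signals. Ascl2 is a transcription factor that maintains them, and Smoc2 is a secreted matrix protein enriched in them. Hopx and Lrig1 mark slower-cycling or reserve populations in mouse intestine, although Hopx and Prom1 are also made outside the stem cell compartment. Bmi1 and Mel18 are related subunits of Polycomb repressive complex 1, which keeps genes silent through chromatin, mostly at promoters rich in CpG.

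Values are RMA intensities on a linear scale, and differences are on the log2 scale. The floor is 33.4 intensity units, the median of all values. A gene is called higher or lower where the 2 arrays differ at least 2-fold and the brighter value reaches the floor, which is the size rule used throughout. With 1 array per genotype no difference has a replicate check, no error or p-value can be given, and precision is limited by the small number of arrays. A lower or higher reading in such bulk material cannot tell a change in the number of cells of a type from a change in RNA per cell.

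Array medians lay between 32.1 and 34.2 units. The 2 Bmi1 probe sets read 432 and 399 under the DKO label and 334 and 339 under Bmi1ΔIEC, against 160 and 135 under Mel18ΔIEC and 116 and 88.4 under WT. The brighter of 2 probe sets of Pcgf2, the Mel18 gene, read 39.8 units under Mel18ΔIEC and between 30.2 and 33.4 under the other three labels, lowest under WT, and the other was under the floor everywhere. Neither gene was dimmer than under WT where the label states its loss, and the deleted exons are not given, so the arrays are called by their labels. The X-inactivation transcript Xist read 611 units under the DKO label, 45.5 under Bmi1ΔIEC, 54.2 under Mel18ΔIEC and 122 under WT; the mice are labelled as sex-matched. The brighter probe set of Y-linked Eif2s3y read 229 units under the DKO label, 282 under Bmi1ΔIEC, 198 under Mel18ΔIEC and 246 under WT. The part of Xist or of sex in any value below was not tested.

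The markers did not move as 1 group. By the brightest probe set of each gene, Lgr5, Smoc2, Ascl2, Hopx and Lrig1 were brightest on the Bmi1-labelled array, followed by the Mel18-labelled array. The WT-labelled array came next and the DKO-labelled array last for Smoc2, Ascl2, Hopx and Lrig1, while for Lgr5 both were under the floor and are not ranked. Prom1 ran the other way between the extremes, Sox9 was dimmest on the WT-labelled array, Msi1 stayed near the floor, and Olfm4 and Tnfrsf19 were below it on every array.

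**Figure D1:**
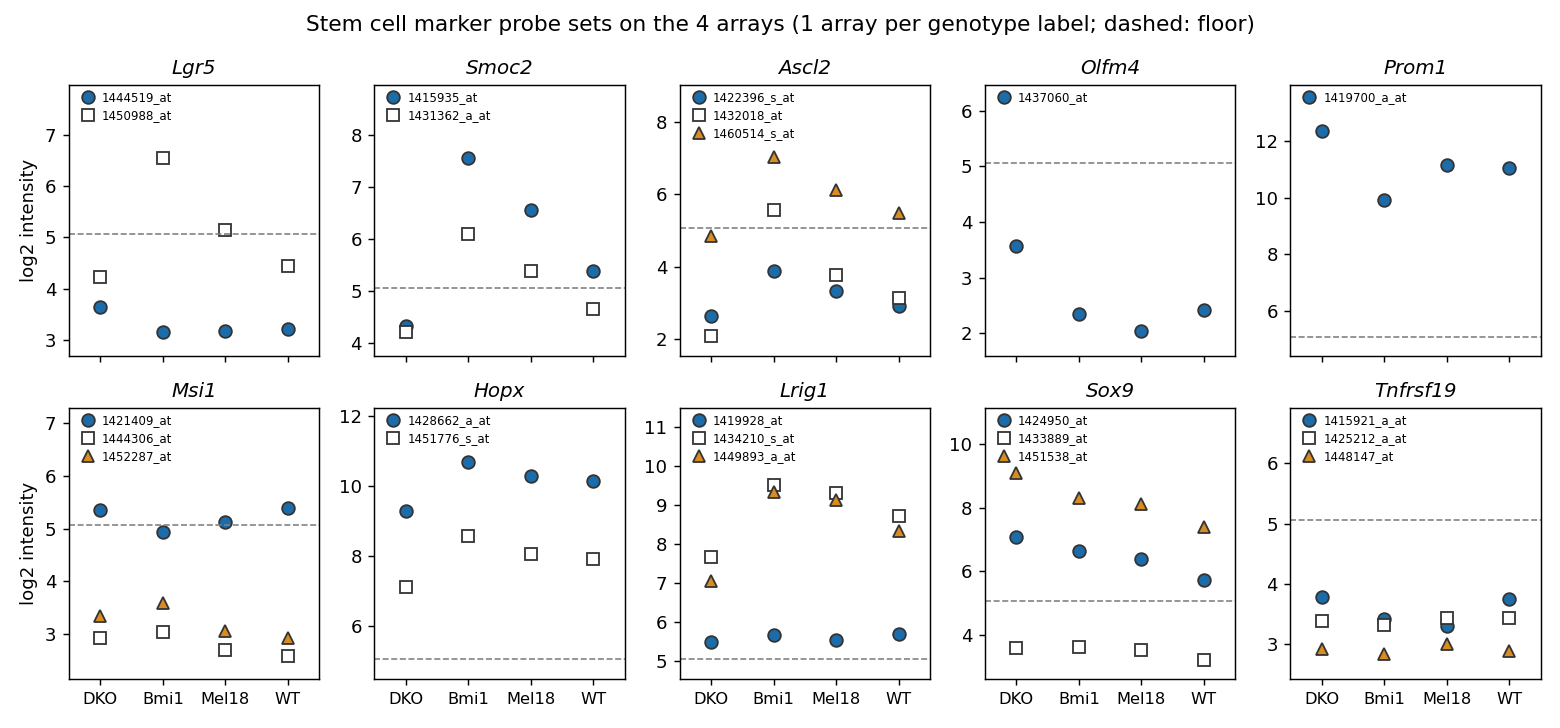
Log2 intensity (y axis) of all 23 probe sets of the 10 marker genes on the DKO, Bmi1, Mel18 and WT-labelled arrays (x axis), 1 panel per gene with its own y range and 1 symbol per probe set. Each point is 1 array, and the dashed line is the floor of 33.4 intensity units. By the brightest probe set of each gene, Lgr5, Smoc2, Ascl2, Hopx and Lrig1 peak on the Bmi1-labelled array, Prom1 and Sox9 on the DKO-labelled array.

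Lgr5, the receptor, was detected above the floor by 1 of its 2 probe sets. Probe set 1450988_at read 18.8 units under the DKO label, 93.6 under Bmi1ΔIEC, 35.1 under Mel18ΔIEC and 21.7 under WT. Only the Bmi1-labelled array stood clear of the floor, with the Mel18-labelled array just over it. The difference from WT was 2.11 on the Bmi1-labelled array, and since the WT-labelled array lay under the floor the change is given as at least 2.81-fold. The same bound, at least 2.81-fold lower, holds for the DKO-labelled against the Bmi1-labelled array. The second probe set, 1444519_at, stayed between 8.93 and 12.4 units and carries no information on the order.

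Smoc2, the secreted matrix protein, had the widest spread, as deposited, of the markers that reached the floor by their brightest probe set. With its DKO-labelled reading raised to the floor the spread was 5.63-fold, near the 5.54-fold of Prom1. Smoc2 probe set 1415935_at read 20.2 units under the DKO label, 188 under Bmi1ΔIEC, 94.9 under Mel18ΔIEC and 42.0 under WT. Smoc2 was the only marker called on all 5 comparisons by that probe set. Relative to WT it differed by -1.06 on the DKO-labelled array, by 2.16 on the Bmi1-labelled array and by 1.18 on the Mel18-labelled array. The reading on the DKO-labelled array lay under the floor, so it was lower by at least 1.26-fold than on the WT-labelled array and by at least 5.63-fold than on the Bmi1-labelled array. Its other probe set, 1431362_a_at, also had the Bmi1-labelled array brightest and the Mel18-labelled array next, with 18.6 units under the DKO label, 68.1 under Bmi1ΔIEC, 41.8 under Mel18ΔIEC and 25.1 under WT. The DKO-labelled and WT-labelled readings were under the floor, so against WT only the Bmi1-labelled array was called, at least 2.04-fold higher.

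Ascl2, the transcription factor, was above the floor on more than 1 array by only 1 of its 3 probe sets. That probe set, 1460514_s_at, read 28.7 units under the DKO label, 130 under Bmi1ΔIEC, 69.2 under Mel18ΔIEC and 44.8 under WT. The Bmi1-labelled array differed from WT by 1.54, whereas the Mel18-labelled array at 0.63 and the DKO-labelled array at -0.64 did not pass the size rule. The DKO-labelled array was lower than the Bmi1-labelled array by at least 3.91-fold and lower than the Mel18-labelled array by at least 2.08-fold. Probe set 1432018_at reached the floor on the Bmi1-labelled array only, at 47.4 units, and 1422396_s_at on none.

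Lrig1 is a membrane protein that restrains growth factor receptors of the EGFR family. Its 2 bright probe sets were brightest on the Bmi1-labelled array, followed by Mel18, WT and DKO. Probe set 1434210_s_at read 202 units under the DKO label, 737 under Bmi1ΔIEC, 633 under Mel18ΔIEC and 421 under WT. These values are far over the floor, and the difference on the DKO-labelled array was -1.06 against WT, -1.86 against the Bmi1-labelled array and -1.64 against the Mel18-labelled array. Probe set 1449893_a_at gave -1.30, -2.28 and -2.09 in these comparisons. Neither single-knockout array passed the size rule against WT, with 0.81 on the Bmi1-labelled and 0.59 on the Mel18-labelled array by the brightest probe set. The other probe set, 1419928_at, disagreed, reading between 45.2 and 51.4 units on all 4 arrays with no difference over 0.18 in size in these 5 comparisons. The 2 probe sets that moved are of types that can match several transcripts, and with such types left out Lrig1 was called in no comparison.

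Hopx, a small homeodomain protein that does not bind DNA, read 623 units under the DKO label, 1670 under Bmi1ΔIEC, 1244 under Mel18ΔIEC and 1134 under WT by probe set 1428662_a_at. Only the DKO-labelled against the Bmi1-labelled array passed the size rule, at -1.42, and the second probe set gave -1.46 there. Against WT the difference was -0.86 on the DKO-labelled array, 0.56 on the Bmi1-labelled array and 0.13 on the Mel18-labelled array. Its 2 probe sets differed from each other by at most 0.10 in any comparison.

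Promoters of markers with this order, and of Prom1, which ran against it, are shown because Polycomb complexes are known mainly from CpG-rich starts. Sequences are from RefSeq on GRCm38.p6, 250 bases before to 50 after an annotated start, read along the gene, with CG dinucleotides in capitals. The table held 6 of the 10 genes, without Lgr5, Smoc2, Msi1 and Sox9. Lgr5 and Smoc2, which were also brightest on the Bmi1-labelled array, are therefore not covered. Ascl2 lies at chr7:142969215-142969514, minus strand, and Lrig1 at chr6:94700096-94700395, minus strand. The more upstream start of each of the other two is given, Hopx at chr5:77115074-77115373 and Prom1 at chr5:44101687-44101986, both minus strand.
Ascl2: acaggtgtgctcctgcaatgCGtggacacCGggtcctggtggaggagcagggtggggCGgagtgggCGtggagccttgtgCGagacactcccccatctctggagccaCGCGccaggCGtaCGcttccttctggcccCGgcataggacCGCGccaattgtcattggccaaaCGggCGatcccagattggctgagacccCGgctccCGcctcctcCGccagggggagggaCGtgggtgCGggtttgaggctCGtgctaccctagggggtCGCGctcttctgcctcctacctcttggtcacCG
Lrig1: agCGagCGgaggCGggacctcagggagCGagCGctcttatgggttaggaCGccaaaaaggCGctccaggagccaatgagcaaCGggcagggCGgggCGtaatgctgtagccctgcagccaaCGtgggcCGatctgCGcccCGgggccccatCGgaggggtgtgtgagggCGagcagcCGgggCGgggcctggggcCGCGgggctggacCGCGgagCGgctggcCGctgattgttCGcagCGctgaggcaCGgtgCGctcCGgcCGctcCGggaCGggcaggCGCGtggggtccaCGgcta
Hopx: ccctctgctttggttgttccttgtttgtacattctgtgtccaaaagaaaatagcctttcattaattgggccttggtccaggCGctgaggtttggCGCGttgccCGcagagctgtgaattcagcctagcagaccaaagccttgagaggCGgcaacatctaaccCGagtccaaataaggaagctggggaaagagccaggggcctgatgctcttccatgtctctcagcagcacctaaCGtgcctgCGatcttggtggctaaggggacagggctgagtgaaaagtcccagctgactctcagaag
Prom1: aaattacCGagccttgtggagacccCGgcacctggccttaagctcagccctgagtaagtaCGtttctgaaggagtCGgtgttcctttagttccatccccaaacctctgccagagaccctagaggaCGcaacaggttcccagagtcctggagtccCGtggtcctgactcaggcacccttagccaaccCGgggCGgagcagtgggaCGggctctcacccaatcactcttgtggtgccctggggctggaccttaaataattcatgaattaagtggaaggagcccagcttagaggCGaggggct

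Of these windows Lrig1 had 35 CG dinucleotides, and 6.95% of all 32851 promoter windows of the table had at least as many. Ascl2 had 23, and 21.5% of windows had at least as many. Prom1 had 10 and Hopx 8 at the starts shown, while the downstream starts had 4 for Prom1 and 21 for Hopx, against a median of 7 over all windows. The letters CTTTGA or CTTTGT, cores of the TCF/LEF motif through which Wnt signals act, were searched on both strands. Neither occurred in the 4 windows shown, and 31.2% of all windows held at least 1. The E-box CAGCTG occurred once, 33 bases after the Hopx start, and in 16.3% of all windows. CTTTGA also occurred in the downstream Prom1 window. These matches describe letters in short windows and say nothing of binding.

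Prom1, a membrane glycoprotein of cell protrusions also called CD133, has a single probe set. It read 5341 units under the DKO label, 964 under Bmi1ΔIEC, 2287 under Mel18ΔIEC and 2118 under WT. All 4 values are far above the floor, the Mel18-labelled and WT-labelled arrays lay within 0.11 of each other, and the other two stood on either side. Against WT it was higher on the DKO-labelled array, at 1.33, and lower on the Bmi1-labelled array, at -1.14. The DKO-labelled array exceeded the Bmi1-labelled array 5.54-fold and the Mel18-labelled array 2.34-fold.

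Sox9, a transcription factor of crypt progenitors that is itself induced by Wnt signals, read brighter on each knockout-labelled array than on the WT-labelled array. Probe set 1451538_at read 541 units under the DKO label, 314 under Bmi1ΔIEC, 278 under Mel18ΔIEC and 169 under WT. The difference from WT passed the size rule on the DKO-labelled array at 1.68, and the values on the Bmi1-labelled array, 0.89, and the Mel18-labelled array, 0.72, did not. A second probe set, 1424950_at, gave 1.33, 0.88 and 0.63 for the same arrays. The remaining probe set, 1433889_at, was under the floor on every array. The double-knockout value of the brightest probe set lay within 0.07 of the sum of the single differences on the log2 scale, whereas for Smoc2 its distance from that sum was -3.67 with the DKO-labelled reading raised to the floor.

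Msi1, an RNA-binding protein first linked to neural progenitors, read 40.6 units under the DKO label, 30.5 under Bmi1ΔIEC, 34.7 under Mel18ΔIEC and 42.1 under WT by its brightest probe set. These values straddle the floor, and no comparison passed the size rule. Olfm4, a secreted glycoprotein that marks stem cells of mouse small intestine and is known to be scarce in mouse colon, read 11.8 units on the DKO-labelled array and between 4.14 and 5.33 on the other three. The 3 probe sets of Tnfrsf19, a TNF receptor family member also called Troy, stayed between 7.10 and 13.7 units. In all, 9 of the 23 probe sets stayed under the floor on every array, between 4.14 and 14.8 units, and no direction is read from them.

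Set against the genes at large, the DKO-labelled array had 2 markers higher than WT (Prom1 and Sox9) and 2 lower (Smoc2 and Lrig1). Of all genes tested in that comparison 2.13% were higher and 2.19% lower. The Bmi1-labelled array had 3 higher than WT (Lgr5, Smoc2 and Ascl2) and 1 lower (Prom1), where 5.76% of genes were higher and 2.86% lower. On the Mel18-labelled array Smoc2 was higher than WT and no marker was lower, where the shares of all genes were 3.15% higher and 2.5% lower. The calls of Smoc2 and Lrig1 on the DKO-labelled array ended with the mean over a gene's probe sets, at -0.74 and -0.85, and with 32 units added before log2, at -0.50 and -0.95. The call of Smoc2 on the Mel18-labelled array ended likewise, at 0.96 and 0.78. With the floor at percentile 75 of all values, 136 units, the calls against WT of Smoc2 on the DKO-labelled and Mel18-labelled arrays and of Lgr5 and Ascl2 on the Bmi1-labelled array ended, and that of Lgr5 also ended with the mean over probe sets, which is under the floor. These 3 comparisons share the WT-labelled array, so their values are not independent. Of the 10 genes, 8 reached the floor on at least 1 array, and Lgr5 did so only on the 2 single-knockout arrays, where it was bright, so a difference was built into its passing.

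The DKO-labelled and Bmi1-labelled arrays differed in more markers than any other pair compared. On the DKO-labelled array 5 markers were lower than on the Bmi1-labelled array (Lgr5, Smoc2, Ascl2, Hopx and Lrig1) and Prom1 was higher, where 7.96% of all genes were lower and 4.3% higher. Against the Mel18-labelled array 3 were lower (Smoc2, Ascl2 and Lrig1) and Prom1 was higher, where 4.53% of genes were lower and 3.84% higher. Hopx lay just inside 2-fold in that comparison and was not called. The median over the 8 markers was -1.64 against the Bmi1-labelled array and -0.95 against the Mel18-labelled array, beside -0.13 and -0.09 over the 12154 genes that reached the floor. Lgr5 counts among the 5 and the 8. It reached the floor only on the 2 single-knockout arrays, so a lower DKO-labelled reading was built into its passing. With that reading raised to the floor, Lgr5 differed by -1.49 from the Bmi1-labelled and by -0.07 from the Mel18-labelled array.

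**Figure D2:**
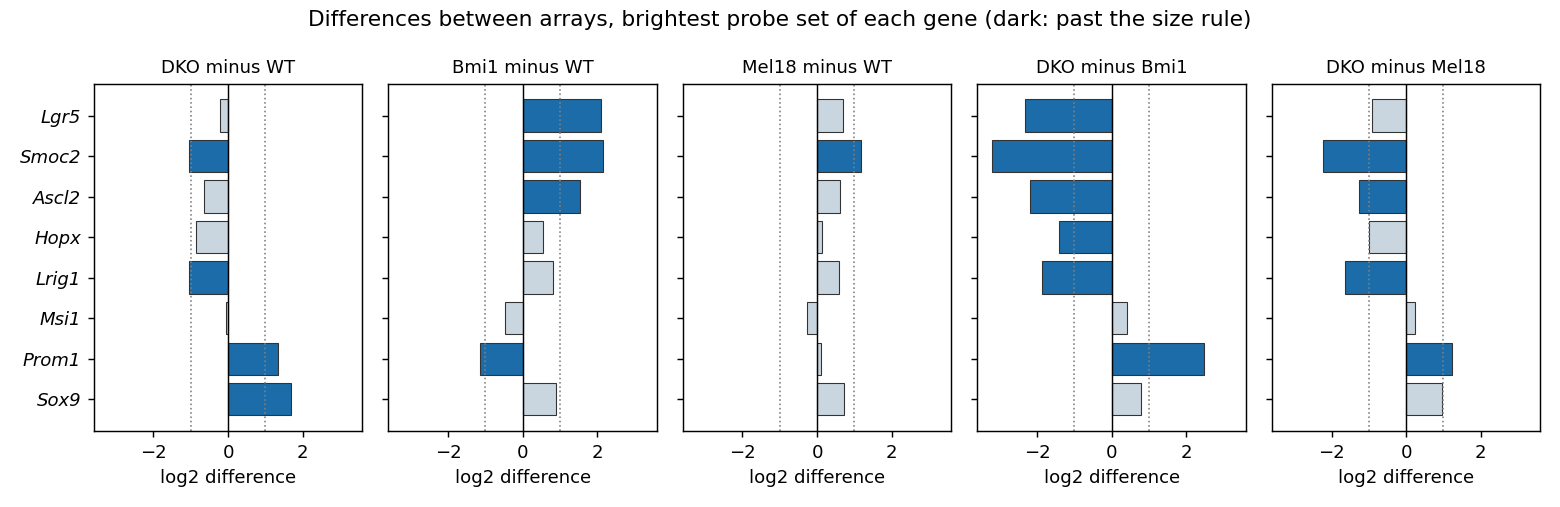
Log2 difference (x axis) of the 8 marker genes that reached the floor (y axis), brightest probe set of each, in 5 comparisons of 2 arrays. Dark bars pass the size rule, light bars do not, and dotted lines mark a 2-fold difference. The DKO minus Bmi1 panel holds 5 dark bars to the left and 1, Prom1, to the right. Lgr5 reached the floor only on the Bmi1 and Mel18-labelled arrays.

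Taken as deposited, the order Bmi1-labelled, Mel18-labelled, WT-labelled, DKO-labelled from bright to dim was found in 5 of the 8 markers, Lgr5 included, and in 16.9% of genes that reached the floor. With readings under the floor raised to it, 4 of the 8 had it, without Lgr5, and so did 16.2% of genes. With each array centred on its genes at or above the floor, Hopx lost this order, the other 4 of the 5 kept it, and 8.94% of genes had it. Under centring on array medians and quantile normalization all 5 kept it. The order was thus widespread and is not particular to the markers.

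The Bmi1 label was read on each background without a shared array, as the Bmi1-labelled minus the WT-labelled array and as the DKO-labelled minus the Mel18-labelled array. Smoc2 passed the size rule in opposite directions, at 2.16 on the wild-type background and -2.23 on the Mel18 background, and so did Ascl2 at 1.54 and -1.27. The DKO-labelled readings of both were under the floor, and raised to it they gave -1.51 for Smoc2 and -1.05 for Ascl2 on the Mel18 background. Of all genes that reached the floor, 1.67% were likewise higher on the first and lower on the second. Prom1 was lower on the first at -1.14 and higher on the second at 1.22, as were 1.17% of genes. Sox9 had the same sign on both, 0.89 and 0.96, without passing the rule on either.

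**Figure D3:**
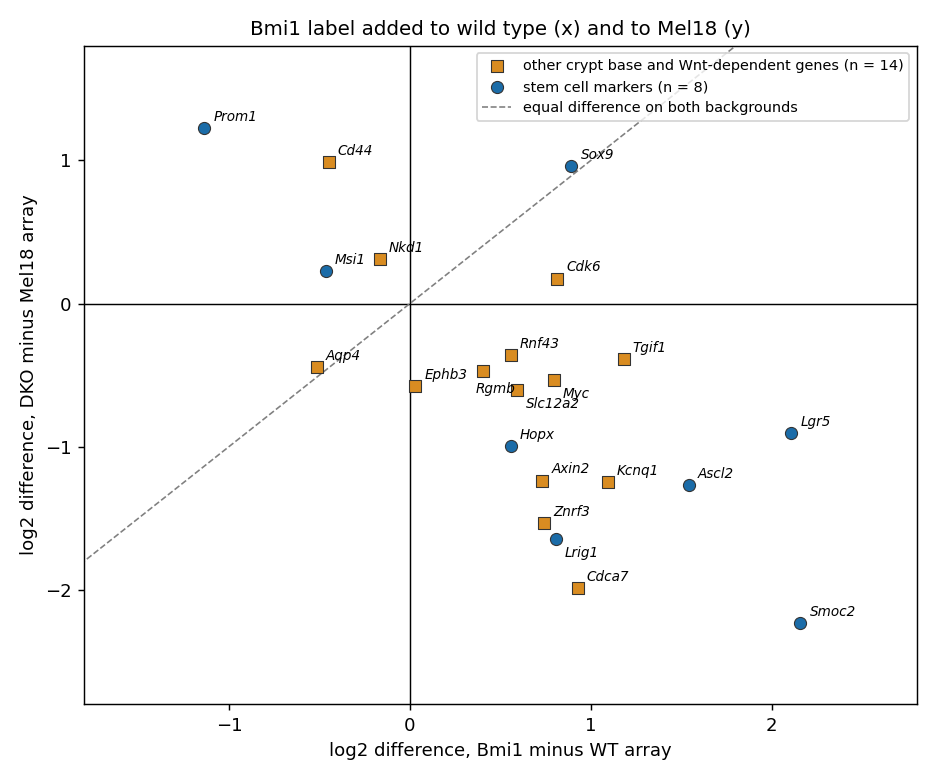
Log2 difference of the DKO minus the Mel18-labelled array (y axis) against that of the Bmi1 minus the WT-labelled array (x axis), with circles for the 8 marker genes and squares for 14 other crypt base and Wnt-dependent genes. Each point is 1 gene by its brightest probe set and the dashed line marks equal differences. Smoc2 lies lowest at the right (2.16 and -2.23), Prom1 at the upper left (-1.14 and 1.22) and Sox9 beside the line.

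Other genes of the crypt base were taken from a list of 20, mainly Wnt feedback genes and genes enriched with Lgr5, of which 17 were measured and 14 reached the floor. On the DKO-labelled array 2 of the 14 were lower than WT and none higher, where 2.19% of all genes were lower and 2.13% higher. The 2 were Cdca7, a Myc-responsive nuclear protein, at -1.79, and Axin2, a feedback inhibitor of Wnt signalling, at -1.12. On the Bmi1-labelled array 2 were higher and none lower, the repressor Tgif1 at 1.18 and the potassium channel Kcnq1 at 1.09, while Ephb3 read 0.03. Of all genes 5.76% were higher and 2.86% lower there. The Mel18-labelled array had 1 higher, Znrf3, which removes Wnt receptors, at 1.01, and 1 lower, the hyaluronan receptor Cd44, at -1.01. Of all genes 3.15% were higher and 2.5% lower on that array. In so short a list the counts on the single-knockout arrays cannot be set apart from these shares.

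Against the Bmi1-labelled array, 5 of the 14 were lower on the DKO-labelled array and none higher, namely Cdca7 at -2.72, Axin2 at -1.86, Kcnq1 at -1.61, Znrf3 at -1.27 and Myc at -1.23. Against the Mel18-labelled array 4 were lower and none higher, with Cdca7 at -1.99, Znrf3 at -1.53, Kcnq1 at -1.25 and Axin2 at -1.24. Of all genes, 7.96% were lower on the DKO-labelled than on the Bmi1-labelled array, and 4.53% than on the Mel18-labelled array. Cdca7 read 51.1 units under the DKO label, 337 under Bmi1ΔIEC, 203 under Mel18ΔIEC and 177 under WT, all above the floor. The chloride cotransporter Slc12a2 followed the same order within a narrower range, from 2294 units on the DKO-labelled to 3698 on the Bmi1-labelled array, and passed the rule in no comparison. The median of the 14 was -0.42 on the DKO-labelled, 0.66 on the Bmi1-labelled and 0.18 on the Mel18-labelled array against WT, beside -0.01, 0.12 and 0.07 over all genes at or above the floor.

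Relatives of the markers in sequence differed among themselves. Of 12 measured, 7 reached the floor, and on the DKO-labelled array none was called against WT in either direction. Sox4, a transcription factor related to Sox9, was lower on the DKO-labelled array than on the Bmi1-labelled array, at -2.03, and than on the Mel18-labelled array, at -1.69. It read 177 units under the DKO label, 723 under Bmi1ΔIEC, 573 under Mel18ΔIEC and 271 under WT. Sox4 was thus dimmest on the DKO-labelled array, where Sox9 was brightest, but its difference from WT there, -0.61, did not pass the size rule. Lrig3 was higher than WT on both single-knockout arrays, at 1.26 on the Bmi1-labelled and 1.19 on the Mel18-labelled array, as was Sox4 at 1.42 and 1.08. Lgr4, the widely expressed relative of Lgr5, differed by at most 0.41 between any knockout-labelled array and WT.

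Proliferation genes were lower on the DKO-labelled array, 8 of the 14 at or above the floor against WT and none higher, with a median of -1.43. They include the helicase subunits Mcm5 at -2.32 and Mcm6 at -2.28, the nucleotide reductase subunit Rrm2 at -2.15 and the proliferation antigen Mki67 at -1.44. Of all genes, 2.19% were lower and 2.13% higher in that comparison. On the Bmi1-labelled array, where Lgr5, Smoc2 and Ascl2 were highest, 1 of the 14 was lower than WT and none higher, with a median of -0.13, and Mcm6 read 0.07. Of all genes 2.86% were lower and 5.76% higher there. A high reading of these stem cell markers there did not come with higher proliferation genes than WT. Genes of regenerating and fetal-like epithelium had 3 of 9 higher than WT on the DKO-labelled array, the alarmin Il33 at 2.73, the growth factor Ereg at 1.30 and the interleukin-1 antagonist Il1rn at 1.02. None was lower there, and Anxa1 read -0.04.

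**Figure D4:**
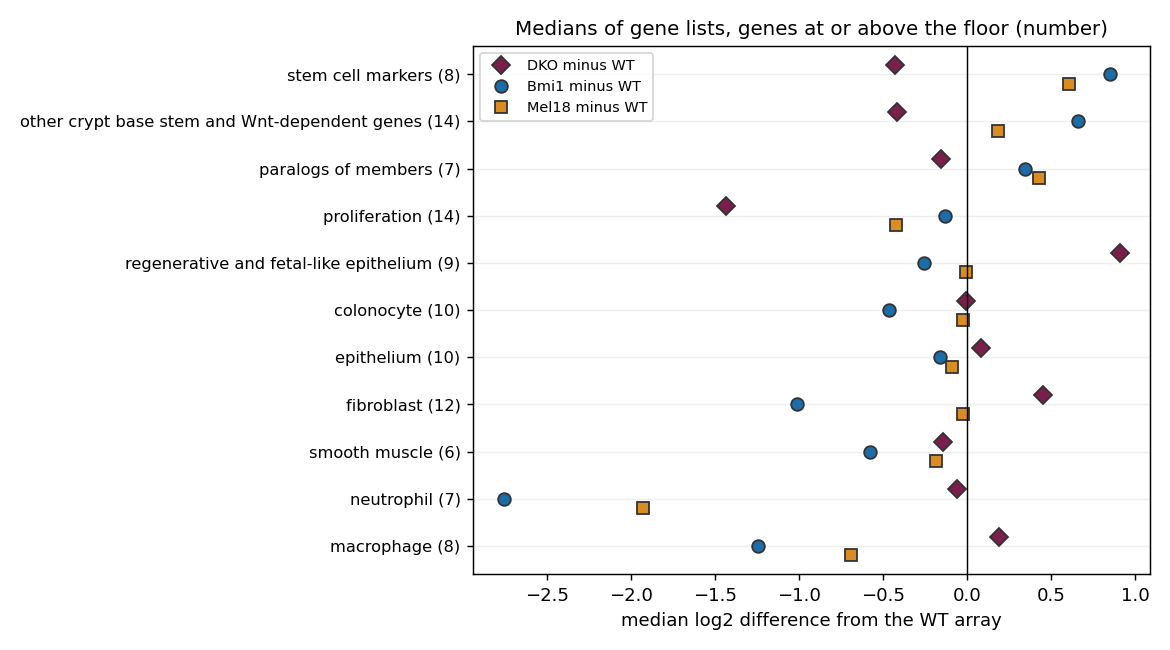
Median log2 difference from the WT-labelled array (x axis) of the stem cell markers and 10 gene lists (y axis, with the number of genes that reached the floor), for the DKO, Bmi1 and Mel18-labelled arrays. Each point is 1 median over genes of 1 list. The stem cell markers lie at -0.43, 0.85 and 0.61 on these arrays, proliferation is lowest on the DKO-labelled array at -1.43, and neutrophil markers are lowest on the Bmi1-labelled array at -2.75. The stem cell marker medians include Lgr5, which reached the floor only on the Bmi1 and Mel18-labelled arrays.

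The labelled cell type was checked by 10 epithelial markers, all far above the floor, of which none passed the size rule in any of the 5 comparisons. Epcam read 10481 units under the DKO label, 10013 under Bmi1ΔIEC, 9819 under Mel18ΔIEC and 10930 under WT. Markers of some other cell types differed between the arrays, and with 1 array per genotype this cannot be tied to the genotype. The 12 fibroblast markers, all at or above the floor on at least 1 array, summed to 6416 units under the DKO label, 1811 under Bmi1ΔIEC, 4423 under Mel18ΔIEC and 4335 under WT. On the Bmi1-labelled array 6 of them were lower than WT, where 2.86% of all genes were. On the DKO-labelled array 10 were higher than on the Bmi1-labelled array, where 4.3% of all genes were. Fibroblasts can also make Smoc2, and their part in its readings was not tested. The 8 neutrophil markers summed to 2859 units under the DKO label, 271 under Bmi1ΔIEC, 430 under Mel18ΔIEC and 3134 under WT, with Cxcr2 under the floor everywhere. Of 8 macrophage markers, 5 were lower than WT on the Bmi1-labelled array, with a median of -1.24, and 2 on the Mel18-labelled array, where 2.5% of all genes were. On the DKO-labelled array 4 were higher than on the Bmi1-labelled array and 1, Cd14, was lower. They summed to 3315 units under the DKO label, 2372 under Bmi1ΔIEC, 1972 under Mel18ΔIEC and 3426 under WT, and without Cd14 to 2593 under the DKO label, 823 under Bmi1ΔIEC, 1215 under Mel18ΔIEC and 2227 under WT. T cell markers were higher than WT on the DKO-labelled array for 3 of 5 at or above the floor, and lower for 1 on the Bmi1-labelled and 2 on the Mel18-labelled array. Of 4 B cell markers 1 was higher than WT on the DKO-labelled array, where 2.13% of all genes were. A single call in so short a list cannot be set apart from that share. No smooth muscle (6 at or above the floor), endothelial (2), enteric glia and neuron (2) or tuft cell (4) marker passed the size rule in the 5 comparisons. The part of these differences in the marker values was not tested.

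Within the epithelium, Reg4, Kit and the other 8 genes of the deep crypt secretory and goblet list did not move together. By the size rule 1 was higher than WT on the DKO-labelled array, where 2.13% of all genes were. On the Bmi1-labelled array 2 were higher and 1 lower, where 5.76% and 2.86% of all genes were. The Mel18-labelled array had 1 higher, where 3.15% of all genes were. Counts this small in a list of 10 cannot be set apart from these shares. Kit, a receptor of deep crypt secretory cells, read 89.9 units under the DKO label, 259 under Bmi1ΔIEC, 190 under Mel18ΔIEC and 73.8 under WT. It was higher than WT on both single-knockout arrays, at 1.81 on the Bmi1-labelled and 1.36 on the Mel18-labelled array. Reg4 was the other gene called higher on the Bmi1-labelled array, at 1.22, and Fcgbp the gene called lower, at -1.17. The median of the 10 there was -0.14. Of the 10 colonocyte markers 2 were higher than WT on the DKO-labelled array, among them carbonic anhydrase Car1 at 1.45, and 2 lower, among them the water channel Aqp8 at -1.43. Of all genes 2.13% were higher and 2.19% lower there. On the Bmi1-labelled array 2 of the 10 were lower, Slc9a3 at -1.70 and Krt20 at -1.29, and none higher, where 2.86% of all genes were lower. Sox9 is also made by enteroendocrine and tuft cells. Of 8 enteroendocrine markers 3 were higher than WT on the DKO-labelled array, among them the granule protein Chga at 1.26, where 2.13% of all genes were higher. None of the 8 was lower there by the size rule, though Tph1 read -0.56 and Insl5 -0.35. The tuft cell markers Dclk1 and Trpm5 read 0.02 and 0.09 there. The part of these cells in the Sox9 values was not tested.

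Genes with the profile nearest to a marker over the 4 arrays were found by the distance between log2 profiles, each centred on its own mean, among 11630 named genes at or above the floor. For Lgr5 these were Slc27a2, Fam229b, A4gnt, Bex1 and Pcdh17, at distances from 0.12 to 0.42, and Ascl2 was number 8 at 0.48. For Smoc2 they were Cdo1, Timp4, Ldlrad3, Tspan33 and Egr2, from 0.30 to 0.52, with Ascl2 number 30 and Lgr5 number 58. Ascl2 had Mycl, Nav2, A4gnt, Ptpn13 and Zfp930 nearest, from 0.10 to 0.26. Sox9 had Plut, Ndnf, Oat, Pdgfrb and Pim3 nearest, from 0.11 to 0.32. The fatty acid transporter Slc27a2 read 30.9 units under the DKO label, 141 under Bmi1ΔIEC, 53.4 under Mel18ΔIEC and 35.5 under WT, close to the profile of Lgr5. Readings under the floor enter these distances as deposited. They include Lgr5 under the DKO and WT labels, and Smoc2 and Ascl2 under the DKO label. Fam229b, at 9.82 and 11.3 units, and Pcdh17, at 15.7 and 16.2, were also under the floor on the DKO-labelled and WT-labelled arrays. Nearness there is partly nearness of background signal.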

How the data were processed

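RNA of colonic epithelial cells, 200 ng per array, was hybridised to Affymetrix Mouse 430 2.0 arrays, 1 per genotype label. The authors deposited linear intensities, 1 per probe set; the submitters' processing notes name RMA and Affymetrix Expression Console; versions, and whether the 4 arrays were summarised together, are not given in the sources used here. Log2 was taken with no pseudocount or further scaling. Of 45037 probe sets, 34945 had 1 gene symbol in the platform annotation, 932 several and 9160 none listed, and 34741 of the first matched a current gene identifier on GRCm38.p6. For each of 18193 genes the probe set of highest mean log2 value was used. Comparisons were each knockout with WT and the double with each single knockout, described by the size rule (2-fold, floor of 33.4 units) and no test. Alternatives changed the probe set choice, floor, scaling, fold, pseudocount and probe set types; raising readings under the floor to it was chosen after seeing the data. The code for the size rule was tested on simulated data, which gives no error rate for these arrays. The members and the 17 gene lists were chosen with earlier results of these data known. Named genes are all members, list genes past the size rule (largest first, up to 6, with some near 0) and defining cell markers. Added to them are the 5 genes nearest in profile to Lgr5, Smoc2, Ascl2 and Sox9. Slc12a2, Cdca7, Sox4, Lgr4, Kit, Fcgbp, Car1, Aqp8, Slc9a3, Krt20, Cd14 and Cxcr2 were singled out for their values after these were seen. The promoter windows are RefSeq's. Work used Python 3.11.15, numpy 2.4.6, pandas 2.3.3 and matplotlib 3.10.9.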

Additional observations from a re-analysis of the deposited data

Results flagged for a closer look

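Smoc2, Ascl2 and Prom1 were picked out because the Bmi1 label went with differences in opposite directions on the 2 backgrounds, past the size rule on both. With 1 array per genotype the difference between the backgrounds was not tested. The departure from additivity (the DKO-labelled minus the Mel18-labelled difference, less the Bmi1-labelled minus the WT-labelled one, in log2) was -4.39 for Smoc2 by probe set 1415935_at, where the Bmi1 label went with 2.16 on the wild-type and -2.23 on the Mel18 background. The Mel18 label also went with opposite differences for this probe set, 1.18 on the wild-type and -3.22 on the Bmi1 background. By probe set 1431362_a_at the departure for Smoc2 was -2.61, from 1.44 and -1.17. For Ascl2, probe set 1460514_s_at, it was -2.81, and for Prom1 it was 2.36. Readings under the floor enter the Smoc2 and Ascl2 values. Raised to the floor, they gave -3.67 for Smoc2 by 1415935_at and -2.59 for Ascl2, with both steps still past the size rule. By 1431362_a_at they gave -1.35, and the step on the Mel18 background, -0.32, no longer passed it. All Prom1 readings were above the floor. Each departure rests on all 4 arrays, so 1 array that stands apart would move it.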

How the results depend on the processing

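Among 490 recomputed log2 differences of single markers, 448 kept their side of the size rule, 23 no longer passed it, 19 newly passed it, and none that was called changed sign. The number of markers called was 4 for DKO against WT as deposited, and 2 with the mean over probe sets, with 32 units added before log2, and with probe sets ending in _x_at, _s_at or _a_at left out. It was 4 for Bmi1 against WT and 2 with the floor at percentile 75. It was 1 for Mel18 against WT, 0 with the mean over probe sets, the percentile 75 floor or 32 units added, and 5 under the 1.5-fold rule. For DKO against Bmi1 it was 6, and 3 with those probe set types left out. For DKO against Mel18 it was 4, 2 with the percentile 75 floor, 7 under the 1.5-fold rule, and 1 with those types left out. With the mean over probe sets 6 of the 10 genes reach the floor, and Lgr5 does not. Leaving those types out removes Prom1 and Hopx and leaves the flat probe set of Lrig1. The setting that raises readings under the floor to it, chosen after seeing the data, ended 1 call, that of Smoc2 for DKO against WT, at -0.33. The other counts stayed within 1.5 times of those as deposited. Shares of all genes called under these altered settings are not given here. A looser rule calls more genes of any kind, so these counts are not read as results about the markers. Over genes at or above the floor, the median difference between the Bmi1-labelled and WT-labelled arrays was 0.12 as deposited, 0.21 with arrays centred on their medians and -0.12 with arrays centred on genes at or above the floor. Signal near background limits Lgr5, Ascl2, Msi1 and the low readings of Smoc2, and 1 array per genotype limits all values. No paired analysis was possible because each group has 1 array.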
